A study of Mus musculus with 30 samples.

Results

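Loss of Rnf2 was examined in female germ cells at stage E11.5, counted in days of embryonic development, before these cells enter meiosis. The comparison used 6 of the 30 arrays of the series, chosen by their titles and recorded sex: 3 from Ring1+;Rnf2delta embryos, called Rnf2delta here, and 3 from Ring1+;Rnf2+ embryos, called control. Both groups came from female embryos of a mixed 129/Sv and C57BL6J background that carried the Oct4(deltaPE)-GFP transgene, a reporter active in germ cells. Gonads were dissociated with trypsin, GFP-positive cells were sorted, and the RNA of 500 cells per sample was amplified and hybridised to Affymetrix arrays. The labels used here do not give what drives the deletion of Rnf2. They also do not say whether each array of a group had its own embryo or litter, so a p-value here measures the spread between samples that may be technical replicates. The series asked how PRC1 sets the time at which female germ cells start to differentiate, and this stage precedes that step. In a sorted bulk sample, fewer cells of a type and less RNA per cell cannot be told apart.

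Polycomb repressive complex 1 (PRC1) silences developmental genes in part by attaching ubiquitin to histone H2A. Its catalytic core holds RNF2, also called RING1B, or the paralogue RING1, paired with a PCGF protein, and CBX, BCOR and other subunits define its variant forms. At E11.5 mouse germ cells have settled in the gonad, still divide by mitosis and express pluripotency genes. Female cells later receive retinoic acid and BMP signals, induce Stra8 and begin meiosis.

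Levels are log2 signals deposited by the authors, and differences are Rnf2delta minus control on that log2 scale, so that 1 is a doubling. Each adjusted p comes from 1 limma fit of all 30 arrays and is adjusted by the Benjamini-Hochberg method over 15180 genes, and a gene is called higher or lower when it is under 0.05. The array medians lay between 2.52 and 2.66. The 6 arrays resembled each other closely: their mean correlation with arrays of their own group, across genes, which are not independent replicates, was 0.990 in Rnf2delta and 0.987 in control for the lowest array of each group. Xist, the RNA that coats the inactive X chromosome, read 2.77 to 3.65 in Rnf2delta and 2.54 to 2.79 in control females. The Y-linked gene Eif2s3y read 1.51 to 1.75 in Rnf2delta and 1.52 to 1.69 in control females, below the 4.86 to 5.04 of Rnf2delta males and the 4.51 to 5.07 of control males of the same stage. On the first principal component of the 6 arrays, which held 30% of the variance, Rnf2delta lay at -18.9 to -8.60 and control at 9.54 to 14.5.

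Germ cell genes marked all 6 samples as germ cells. The octamer factor Pou5f1, whose enhancer drives the reporter, read 9.71, 9.23 and 9.43 in Rnf2delta and 9.59, 9.35 and 9.19 in control. The summed linear signal of 14 germ cell markers was 3530 to 4250 in Rnf2delta and 3660 to 4140 in control, so the groups overlapped. Rnf2 itself read 3.96, 3.81 and 4.04 in Rnf2delta and 4.56, 4.61 and 4.46 in control. Every Rnf2delta array lay below every control array, and the difference of -0.61 ± 0.19 (SE) did not pass the threshold (limma adjusted p = 0.20). Where the probe set lies relative to the deletion is not given, and if it lies outside, this level is no check of the genotype. Ring1, the paralogue, read 3.23, 2.98 and 2.98 in Rnf2delta and 2.92, 2.95 and 3.21 in control, with a difference of 0.04 ± 0.15 (adjusted p = 1).

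Nearly every gene called in E11.5 female Rnf2delta cells was higher than in control. Of 15180 genes, 82 were higher (0.54%) and 2 were lower (0.0132%), together 84 (0.553%). Their rises ran from 0.57 to 2.01 with a median of 0.90, and 30 genes at least doubled. Across all genes tested the median difference was 0.02, and 54.9% of differences were above 0. On all 84 the 3 Rnf2delta arrays lay on one side of the 3 control arrays, as they did, higher, for 1474 of all genes (9.71%) and, lower, for 689 (4.54%). Of the 82 higher genes, 75 exceeded the 40th percentile of the array on all 6 arrays, which is the level of the filter and not a test of detection. The number called depended on which arrays entered: it was 39 without Rnf2delta replicate 3, 41 without control replicate 1, and 46 without either Rnf2delta replicate 1 or control replicate 2. It was 157 with array weights and 151 without the more variable E12.5 female arrays, and 30 genes were called under every one of the alternatives that could test them. Of the 84 genes, 31 kept the call without each 1 of the 6 arrays. A called gene whose array values are given below keeps its call without any 1 array unless the text on it says otherwise. For called genes named without array values this is given only where stated.

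**Figure D1:**
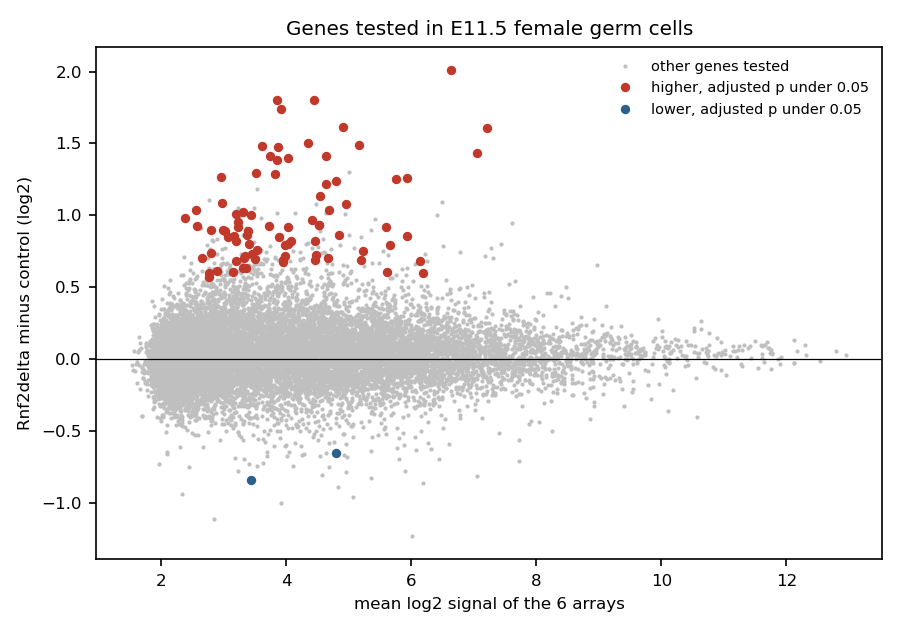
Each point is 1 of the 15180 genes tested in E11.5 females, with its mean log2 signal over the 6 arrays on the horizontal axis and Rnf2delta minus control (log2) on the vertical axis. The 82 higher genes are red and the 2 lower genes are blue, and no rise exceeded 2.01.

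The promoters of the 4 genes with the largest rises are shown because these promoters differ in their content of CG dinucleotides, the feature of CpG islands, where PRC1 is known to bind. Each window holds 300 bases, from 250 bases before the start of the gene to 50 after it, from RefSeq on GRCm38.p6, written 5′ to 3′ along the gene with CG dinucleotides in capitals. Cd63 lies at chr10:128909095-128909394 on the + strand, Ddah1 at chr3:145758442-145758741 on the + strand, Aldh1a2 at chr9:71215539-71215838 on the + strand and Hdac6 at chrX:7947840-7948139 on the - strand.
Cd63: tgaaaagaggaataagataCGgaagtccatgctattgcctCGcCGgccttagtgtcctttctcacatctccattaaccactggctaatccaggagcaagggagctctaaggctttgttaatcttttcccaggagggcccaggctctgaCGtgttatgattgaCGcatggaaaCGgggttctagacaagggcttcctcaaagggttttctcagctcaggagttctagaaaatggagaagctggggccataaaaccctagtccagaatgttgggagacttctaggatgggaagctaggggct
Ddah1: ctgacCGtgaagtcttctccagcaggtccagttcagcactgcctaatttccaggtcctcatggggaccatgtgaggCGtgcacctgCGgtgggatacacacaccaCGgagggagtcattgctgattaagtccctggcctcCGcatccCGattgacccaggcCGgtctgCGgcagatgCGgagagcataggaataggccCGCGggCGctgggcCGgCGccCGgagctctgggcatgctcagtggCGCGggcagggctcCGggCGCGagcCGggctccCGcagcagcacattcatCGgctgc
Aldh1a2: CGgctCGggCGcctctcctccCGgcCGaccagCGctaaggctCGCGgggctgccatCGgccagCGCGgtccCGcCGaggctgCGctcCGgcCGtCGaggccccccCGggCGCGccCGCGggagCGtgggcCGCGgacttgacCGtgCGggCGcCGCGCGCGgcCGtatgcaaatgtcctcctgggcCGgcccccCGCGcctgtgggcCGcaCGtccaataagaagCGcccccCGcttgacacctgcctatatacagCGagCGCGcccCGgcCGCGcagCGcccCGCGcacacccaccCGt
Hdac6: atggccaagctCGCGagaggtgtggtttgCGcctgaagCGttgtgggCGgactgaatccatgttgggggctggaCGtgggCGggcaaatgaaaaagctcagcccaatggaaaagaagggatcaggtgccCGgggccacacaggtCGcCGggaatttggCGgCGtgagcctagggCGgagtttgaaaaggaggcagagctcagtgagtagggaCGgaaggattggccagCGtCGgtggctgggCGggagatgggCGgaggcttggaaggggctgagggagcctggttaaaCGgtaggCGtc

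The window of Cd63 held 6 CG dinucleotides, that of Ddah1 23, that of Aldh1a2 50 and that of Hdac6 20. Promoter windows were available for 66 of the 82 higher genes, and their 95 windows had a median of 21 CG dinucleotides, against a median of 18 in the 15021 windows of all genes tested. A pair of motifs bound by subunits of the variant complex PRC1.6 were searched on both strands and do not overlap each other: the E-box CACGTG, of MGA and MAX, and TCCCGCC, of E2F6. The E-box lay in 11.6% of the windows of higher genes and in 9.33% of those of all genes tested. The E2F motif lay in 28.4% of the windows of higher genes and in 18.8% of those of all genes tested. Of the printed windows, Aldh1a2 and Hdac6 held 1 E2F motif each and none held the E-box. These matches describe the letters in the windows and were not tested.

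Cd63, a tetraspanin of late endosomes and secreted vesicles, gave the largest rise. It read 7.0, 7.83 and 8.09 in Rnf2delta and 5.58, 6.0 and 5.31 in control. All 3 Rnf2delta arrays were above all 3 control arrays, and the rise of 2.01 ± 0.33 (SE, adjusted p = 0.00087) was 4.02-fold. Ddah1, which breaks down asymmetric dimethylarginine, an inhibitor of nitric oxide synthase, read 5.09, 5.48 and 5.47 in Rnf2delta and 2.96, 3.79 and 3.88 in control. It rose by 1.81 ± 0.22 (adjusted p = 1.7e-05), with control replicate 1 lowest. Hdac6, the cytoplasmic deacetylase of tubulin, read 4.79, 4.86 and 4.73 in Rnf2delta and 2.89, 3.18 and 3.08 in control. The arrays of each group lay close together and far from the other group, and the rise of 1.74 ± 0.18 had the smallest p of the genes called (adjusted p = 2.5e-06).

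**Figure D2:**
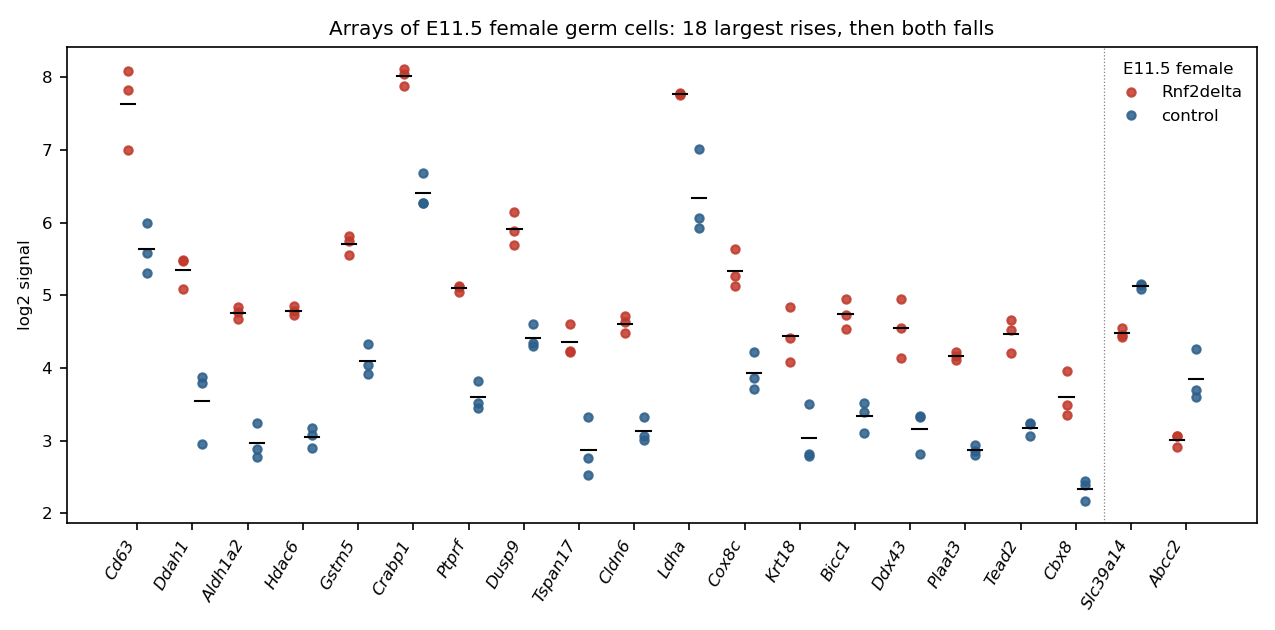
Log2 signal of each E11.5 female array for the 18 genes with the largest rises and, right of the dotted line, both genes that fell, with Rnf2delta in red left of control in blue and a bar at each mean (n = 3 each). The groups do not overlap for any gene shown.

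Genes of retinoic acid handling stood among the largest rises. Aldh1a2, the enzyme that makes retinoic acid, read 4.67, 4.84 and 4.77 in Rnf2delta and 2.77, 2.88 and 3.24 in control, a rise of 1.80 ± 0.26 (adjusted p = 0.00019). Crabp1, which binds retinoic acid in the cytoplasm, read 7.88, 8.04 and 8.12 in Rnf2delta and 6.27, 6.27 and 6.69 in control and rose by 1.61 ± 0.23 (adjusted p = 0.00018). For both genes every Rnf2delta array was above every control array. Crabp2, which carries retinoic acid to nuclear receptors, read 4.96, 5.11 and 5.67 in Rnf2delta and 3.68, 4.46 and 3.95 in control and rose by 1.22 ± 0.28 (adjusted p = 0.034), a call that was kept without control replicate 2 and lost with quantile normalization and without any other 1 array. Of 17 genes of retinoic acid synthesis, binding and receptors, these 3 were higher, against 0.54% of all genes, none was lower, and the median difference was 0.08, against 0.02 for all genes. Rarb, a receptor gene that retinoic acid induces, differed by 0.17 ± 0.12 (adjusted p = 0.96), and its groups overlapped.

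Among PRC1 subunits, Cbx8 and Bcor rose. Cbx8, a chromodomain subunit of canonical PRC1, read 3.36, 3.95 and 3.49 in Rnf2delta and 2.16, 2.45 and 2.39 in control, a rise of 1.27 ± 0.18 (adjusted p = 0.00018). Bcor, the scaffold of the variant complex PRC1.1, read 5.07, 5.03 and 5.54 in Rnf2delta and 4.17, 4.41 and 3.94 in control, a rise of 1.04 ± 0.17 (adjusted p = 0.00084). Both genes separated the groups without overlap. The 2 were called among 24 subunits tested, against 0.54% of all genes. Of the 24, 9 lay higher without overlap (37.5%, against 9.71% of all genes) and Rnf2 alone lay lower, and the median difference was 0.11. E2f6, Cbx2 and Yaf2 were among the 9 and did not pass, with differences of 0.56 (adjusted p = 0.11), 0.52 (0.21) and 0.64 (0.22). Of 12 subunits of PRC2, the complex that methylates histone H3, none was called and the median was 0.01. Epop, a PRC2 accessory protein, had the smallest p (0.30, adjusted p = 0.66).

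Developmental factors bound by Polycomb held 2 called genes at this stage. Of 72 transcription factor genes known to be bound by Polycomb in embryonic stem cells, Zic2 and En2 rose, against 0.54% of all genes, and the median difference was 0.07. Without overlap, 13 of the 72 lay higher (18.1%, against 9.71% of all genes) and 7 lower (against 4.54%). Zic2, a zinc finger factor of the early nervous system, read 3.43, 2.6 and 3.20 in Rnf2delta and 1.86, 2.34 and 1.91 in control (1.04 ± 0.22, adjusted p = 0.020). En2, a homeobox factor of the midbrain and hindbrain, read 3.17, 3.46 and 3.80 in Rnf2delta and 2.39, 2.64 and 2.74 in control (0.89 ± 0.20, adjusted p = 0.027). The Zic2 call was lost without Rnf2delta replicate 1 or 3 or control replicate 1 or 3, and the En2 call with quantile normalization and without Rnf2delta replicate 2 or 3 or control replicate 1 or 2. Of 25 Hox genes tested, the patterning genes of the body axis, none was called, and the median was 0.04. Hoxc6 and Hoxa10 had the smallest p among them, with differences of -0.45 (adjusted p = 0.36) and 0.34 (0.54). Only 9 of the 25 Hox genes exceeded the 40th percentile of the array on 3 or more of the 6 arrays. So did 51 of the 72 factors and 12937 of the 15180 genes tested. A change in the members below that level could be missed.

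Genes that restrain the cell cycle and imprinted genes overlapped in what rose. Cdkn2a, which encodes the inhibitors p16INK4A and p19ARF and is a known Polycomb target, read 4.17, 4.19 and 4.21 in Rnf2delta and 3.39, 3.12 and 3.28 in control. Its rise of 0.93 ± 0.20 (adjusted p = 0.023) separated the groups without overlap. The call was lost without any 1 of the 6 arrays and with the replicate number fitted as a block. Cdkn1c, an imprinted inhibitor of cyclin-dependent kinases, read 4.6, 4.47 and 4.08 in Rnf2delta and 3.66, 3.73 and 3.38 in control and rose by 0.79 ± 0.17 (adjusted p = 0.022). Of 8 inhibitors and retinoblastoma family genes these 2 were higher, against 0.54% of all genes, with a median of 0.26 over the list. Of 29 imprinted genes 3 were higher, against 0.54% of all genes, with a median of 0.14: Cdkn1c, Grb10 and Plagl1. Without overlap, 10 of the 29 lay higher (34.5%, against 9.71% of all genes) and none lower. Grb10, an adaptor that dampens insulin and growth factor receptor signals, read 4.07, 3.67 and 3.36 in Rnf2delta and 2.85, 2.66 and 2.84 in control (0.92 ± 0.19, adjusted p = 0.017). Plagl1, a zinc finger factor that restrains growth, read 4.80, 5.06 and 5.10 in Rnf2delta and 3.74, 4.08 and 4.34 in control (0.93 ± 0.22, adjusted p = 0.043). The calls of Cdkn1c and Grb10 were lost without Rnf2delta replicate 1 or 2 or control replicate 1. That of Cdkn1c was also lost without control replicate 3, with only the compared arrays fitted or with the replicate block. That of Grb10 was also lost without control replicate 2. Plagl1 kept its call without control replicate 3 and lost it without any other array, with quantile normalization and with no filter. Of 29 genes of mitotic proliferation none was called (median 0.07). The D-type cyclins Ccnd1 and Ccnd2 had the smallest p among these, with differences of 0.59 (adjusted p = 0.11) and 1.01 (0.16).

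The insulin-like growth factor axis held 2 higher genes of 15 tested, against 0.54% of all genes (median 0.14). Igfbp2, a secreted protein that binds these growth factors, read 6.80, 6.14 and 6.73 in Rnf2delta and 5.33, 5.37 and 5.18 in control, a rise of 1.26 ± 0.22 (adjusted p = 0.0018). Igf1r, their receptor, read 3.84, 3.86 and 3.80 in Rnf2delta and 2.92, 2.67 and 2.83 in control, a rise of 1.03 ± 0.22 (adjusted p = 0.022) whose call was lost without any 1 array. Of 20 genes of BMP signalling and its oogenic response none was called, 8 lay higher without overlap (40%, against 9.71% of all genes) and the median was 0.26. Id2, a BMP-induced inhibitor of basic helix-loop-helix factors, read 4.04, 4.0 and 3.98 in Rnf2delta and 3.27, 2.73 and 2.87 in control (1.05 ± 0.32, adjusted p = 0.20), and Gata2 differed by 0.63 (adjusted p = 0.15).

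Tetraspanins and enzymes of glutathione use also held called genes. Their lists, like the others used here, were chosen with earlier results of these data known. The shares therefore describe the lists and are no test of them. Of 24 tetraspanins tested, membrane proteins that organise other proteins into microdomains, Cd63 and Tspan17 were called higher, against 0.54% of all genes. Without overlap, 10 lay higher (41.7%, against 9.71% of all genes) and 3 lower (against 4.54%), and the median was 0.25. Tspan17 read 4.23, 4.23 and 4.6 in Rnf2delta and 2.52, 3.32 and 2.76 in control, a rise of 1.48 ± 0.21 (adjusted p = 0.00018). Tspan5, Cd81 and Tspan8 did not pass, at 0.78 (adjusted p = 0.077), 0.73 (0.17) and -0.40 (0.11). Of 28 genes of glutathione metabolism, Gstm5 and Gsto1 were called higher, against 0.54% of all genes. Without overlap 8 lay higher (28.6%, against 9.71% of all genes), and the median was 0.16. Gstm5, a glutathione transferase, read 5.75, 5.56 and 5.82 in Rnf2delta and 4.34, 4.04 and 3.92 in control, a rise of 1.61 ± 0.18 (adjusted p = 7.7e-06). Gsto1, an omega-class transferase, rose by 0.86 ± 0.20 (adjusted p = 0.043), a call lost without any 1 array, with quantile normalization and with no filter. The related transferase genes Gstp1 and Gstm6 differed by 0.66 (adjusted p = 0.22) and 0.91 (0.43). Cross-hybridisation between probe sets of the Gstm genes, which are close in sequence, was not tested.

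Ldha, the lactate dehydrogenase subunit of glycolytic cells, was the 1 called gene of 19 in glycolysis and glucose uptake, against 0.54% of all genes. It read 7.76, 7.78 and 7.77 in Rnf2delta and 6.07, 7.01 and 5.93 in control, so the Rnf2delta arrays were nearly equal while control replicate 2 stood above the other 2 controls. It rose by 1.44 ± 0.25 (adjusted p = 0.0023), and the list's median was 0.04. Hdac6 was the 1 called gene of 18 histone deacetylases and sirtuins, against 0.54% of all genes (median 0.10).

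Hdac6 and Bcor lie on the X chromosome, as do Dusp9 and Pja1, and these were the 4 genes called among 473 X-linked genes tested, where 0.553% of all genes were called. The median of the X-linked genes was 0.02, as for all genes. Without overlap, 53 of the 473 lay higher (11.2%, near the 9.71% of all genes) and 37 lower (against 4.54% of all genes). Dusp9, a phosphatase of MAP kinases, read 6.14, 5.88 and 5.69 in Rnf2delta and 4.6, 4.34 and 4.31 in control, a rise of 1.49 ± 0.20 (adjusted p = 7.2e-05). Pja1, a RING-type ubiquitin ligase, read 6.49, 6.25 and 6.44 in Rnf2delta and 5.46, 5.0 and 4.96 in control, a rise of 1.25 ± 0.16 (adjusted p = 3.5e-05). Neither gene's groups overlapped. Xist differed by 0.60 ± 0.20 (adjusted p = 0.29), with its lowest Rnf2delta array within the range of control.

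The other large rises fell in several classes. Ptprf, a receptor tyrosine phosphatase, read 5.13, 5.11 and 5.05 in Rnf2delta and 3.52, 3.45 and 3.82 in control, a rise of 1.5 ± 0.17 (adjusted p = 8.2e-06). Cldn6, a tight junction protein, read 4.72, 4.64 and 4.47 in Rnf2delta and 3.01, 3.33 and 3.07 in control, a rise of 1.48 ± 0.24 (adjusted p = 0.00087). Krt18, a keratin of simple epithelia, read 4.41, 4.09 and 4.84 in Rnf2delta and 2.79, 3.5 and 2.82 in control, a rise of 1.41 ± 0.23 (adjusted p = 0.00087). All of these genes of the cell surface and epithelial skeleton separated the groups without overlap. Krt8, the keratin that pairs with Krt18, read 3.78, 5.04 and 3.67 in Rnf2delta and 3.78, 3.52 and 3.78 in control, so 1 Rnf2delta array was high and the groups overlapped (0.47 ± 0.35, adjusted p = 0.96).

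Regulators and RNA-binding proteins followed. Tead2, a DNA-binding partner of YAP in Hippo signalling, rose by 1.29 ± 0.19 (adjusted p = 0.00025), with 4.21, 4.52 and 4.66 in Rnf2delta and 3.23, 3.25 and 3.06 in control. Vezf1, a zinc finger factor, rose by 1.13 ± 0.16 (adjusted p = 0.00018), with 5.06, 4.99 and 5.29 in Rnf2delta and 3.62, 4.03 and 4.29 in control. The groups did not overlap for either factor, and control replicate 1 was the lowest for Vezf1. Ddx43, a DEAD-box RNA helicase, rose by 1.39 ± 0.24 (adjusted p = 0.0021), with 4.55, 4.14 and 4.96 in Rnf2delta and 3.35, 2.82 and 3.32 in control. Bicc1, an RNA-binding translational regulator, rose by 1.4 ± 0.27 (adjusted p = 0.0062), with 4.53, 4.94 and 4.73 in Rnf2delta and 3.51, 3.39 and 3.10 in control, and its call was lost without Rnf2delta replicate 2 or control replicate 3.

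Cox8c, a cytochrome c oxidase subunit known from testis, rose by 1.41 ± 0.22 (adjusted p = 0.00061), with 5.13, 5.26 and 5.63 in Rnf2delta and 3.71, 3.86 and 4.23 in control. Plaat3, a phospholipase, rose by 1.29 ± 0.20 (adjusted p = 0.00046), with 4.16, 4.11 and 4.23 in Rnf2delta and 2.86, 2.95 and 2.81 in control. For both the groups lay apart. Camkv, a pseudokinase related to calmodulin-dependent kinases and known from neurons, rose by 1.24 ± 0.21 (adjusted p = 0.0018), with 5.51, 5.24 and 5.52 in Rnf2delta and 4.66, 3.98 and 3.92 in control. Upp1, the uridine phosphorylase of pyrimidine salvage, rose by 1.08 ± 0.23 (adjusted p = 0.022), with 3.4, 3.67 and 3.48 in Rnf2delta and 2.43, 2.36 and 2.51 in control, and its call was lost without any 1 array. Tulp4, a tubby-like protein, rose by 1.08 ± 0.21 (adjusted p = 0.0060). Its Rnf2delta arrays read 5.58, 5.45 and 5.50 and its control arrays 4.72, 3.88 and 4.68, with control replicate 2 the lowest, and the call was lost without that array.

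The genes that fell were transporters. Abcc2, an efflux pump for organic anions, read 3.06, 2.92 and 3.07 in Rnf2delta and 4.26, 3.69 and 3.60 in control and fell by 0.84 ± 0.19 (adjusted p = 0.027), a call kept only without control replicate 2 or 3 among the single arrays left out. Slc39a14, which imports zinc, iron and manganese, read 4.55, 4.45 and 4.43 in Rnf2delta and 5.09, 5.16 and 5.14 in control. It fell by 0.65 ± 0.14 (adjusted p = 0.022), a call lost without any 1 array and with the replicate block. Both genes kept the groups apart. The next 5 by p did not pass: the muscle myosin light chain Mylpf (-0.81, adjusted p = 0.051), the guidance ligand Slit2 (-0.70, 0.060), the coagulation inhibitor Tfpi (-0.96, 0.064), the natriuretic peptide gene Nppb (-0.84, 0.099) and the nucleolar GTPase gene Gnl3l (-0.59, 0.10).

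Genes of germ cell identity and of meiosis gave no call in E11.5 females. Stra8, the gene induced by retinoic acid that is needed for meiotic entry, read 2.32, 2.37 and 1.85 in Rnf2delta and 2.19, 2.22 and 1.92 in control. The groups overlapped at levels around the 40th percentile of these arrays, which was 2.21 to 2.31, and the difference was 0.07 ± 0.35 (adjusted p = 1). Sycp3, a component of the synaptonemal complex, read 5.77, 5.79 and 6.18 in Rnf2delta and 5.08, 5.01 and 4.74 in control. Its groups did not overlap, and the difference of 0.97 ± 0.33 did not pass (adjusted p = 0.30, and 0.017 to 0.81 over the alternatives). Rec8, which encodes a cohesin subunit of meiosis, read 3.80, 3.88 and 3.86 in Rnf2delta and 3.30, 3.12 and 3.33 in control (0.60 ± 0.26, adjusted p = 0.57). Of 37 genes of meiotic entry and prophase tested, none was called, 5 lay higher without overlap, where 9.71% of all genes did, none lower, and the median was 0.08. Tex11, needed for meiotic recombination, had the smallest p of this list, with 3.14, 3.45 and 3.35 in Rnf2delta and 2.40, 2.62 and 2.42 in control (0.84 ± 0.23, adjusted p = 0.12). Dmc1, the meiotic recombinase, differed by 0.35 (adjusted p = 0.95). In E11.5 males Sycp3 was called higher (1.52, adjusted p = 0.016), and Stra8, Rec8 and Dmc1 were not called. The germ cell marker Mael differed by 0.66 in females without overlap (adjusted p = 0.46) and was called higher in males (1.28, adjusted p = 0.0083). For neither Sycp3 nor Mael did the female minus male interaction pass.

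No pluripotency gene passed the threshold. Nanog read 8.48, 8.5 and 8.93 in Rnf2delta and 8.61, 8.79 and 8.5 in control (0.00 ± 0.20, adjusted p = 1), and Pou5f1 and Sox2 differed by 0.08 and 0.28 with overlapping groups. Of 29 pluripotency genes tested none was called, 10 were above 0 and the median was -0.07. Tdgf1, a coreceptor of Nodal, had 5.28, 5.36 and 5.54 in Rnf2delta and 6.43, 7.33 and 6.11 in control (-1.23 ± 0.39, adjusted p = 0.25). Of 28 genes of germline licensing and genome defence none was called, 10 lay higher without overlap (35.7%, against 9.71% of all genes) and 2 lower, and the median was 0.21. Tex101, a germ cell surface protein, read 4.47, 3.97 and 3.92 in Rnf2delta and 2.94, 3.04 and 2.85 in control (1.18 ± 0.30, adjusted p = 0.067). Ddx4, the germ cell RNA helicase Vasa, read 6.88, 6.86 and 6.99 in Rnf2delta and 6.62, 5.34 and 6.41 in control (0.78 ± 0.25, adjusted p = 0.24), with control replicate 2 the lowest. Dazl, an RNA-binding protein that licenses germ cells for sexual differentiation, differed by 0.00 with overlapping groups. Nanos2, the male fate gene, differed by -0.06. Of the 13 genes of male germ cell differentiation and the 16 of early germ cells none was called, with medians of -0.06 and -0.02.

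**Figure D3:**
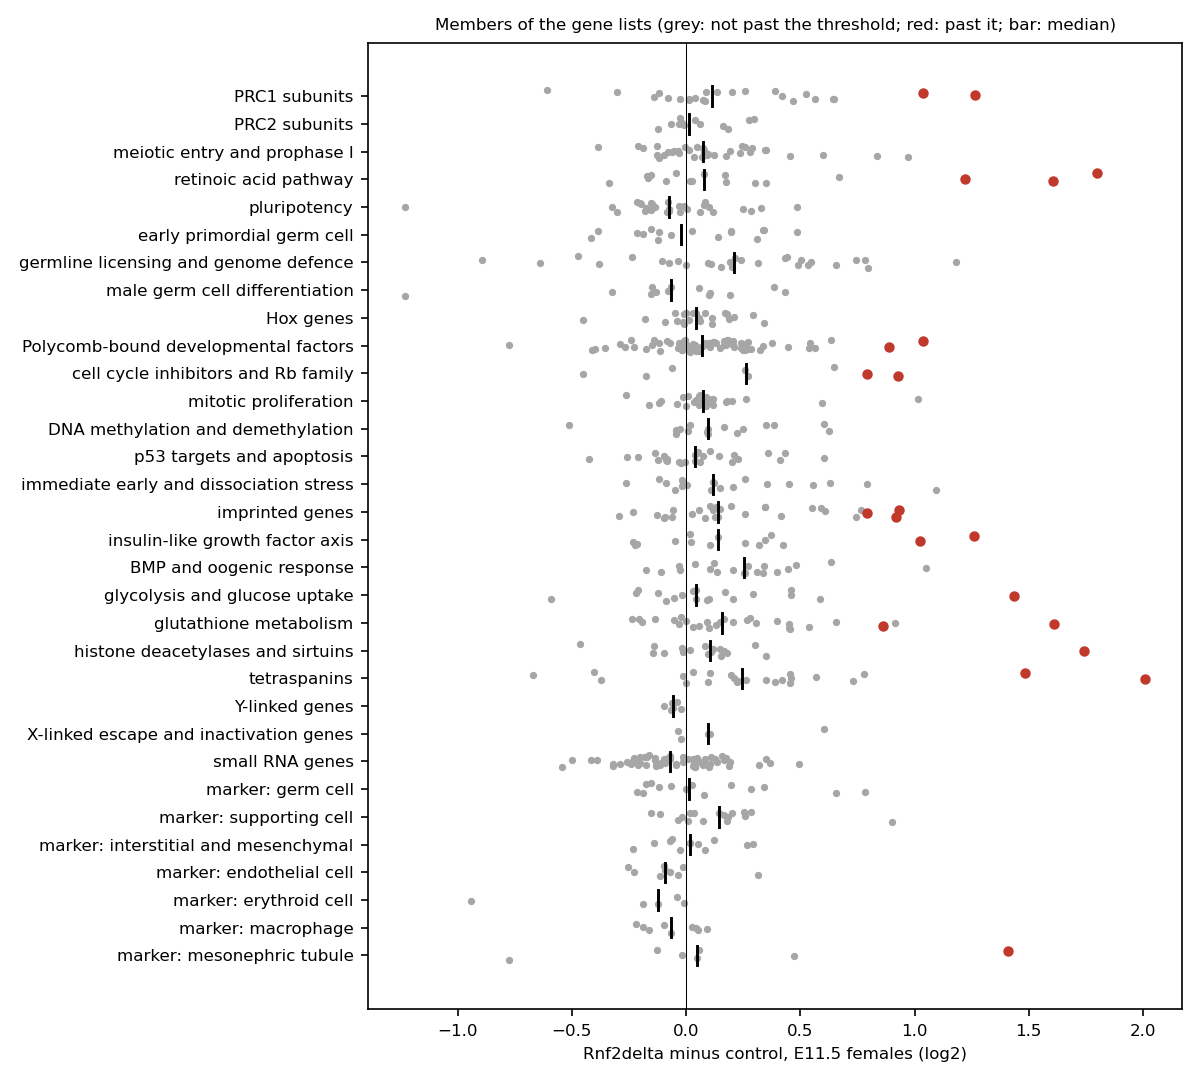
Each point is 1 tested member of a gene list, with Rnf2delta minus control in E11.5 females (log2) on the horizontal axis, and black bars mark the list medians. Members past the threshold are red and the rest grey, and the vertical scatter within a list has no meaning. The medians lie between -0.12 and 0.26 and the red members lie at 0.79 or above.

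Markers of other gonadal cells were measured on the same arrays. Of 17 supporting cell markers none was called, 4 lay higher without overlap (23.5%, against 9.71% of all genes), and their summed linear signal was 118 to 124 in Rnf2delta and 107 to 109 in control. Wt1 and Gata4 overlapped, with 2.90 to 3.12 and 3.04 to 3.58 in Rnf2delta and 2.48 to 2.98 and 2.86 to 3.57 in control. The 4 without overlap were Nr5a1 (difference 0.203), Irx3 (0.283), Bmp2 (0.254) and Cbln1 (0.902, adjusted p = 0.055). Cbln1 was called higher in E11.5 males (0.927). Of the 17 markers, 13 differed by more than 0 in E11.5 females, and none lay lower without overlap. The part of supporting cells in the rises was not tested. Of 7 mesonephric tubule markers tested Krt18 was called higher, against 0.54% of all genes. The summed signal of the 8 with a probe set, Krt18 and Krt8 included, was 71.7 to 83.2 in Rnf2delta and 58.5 to 62.8 in control. Lhx1, a homeobox factor of the same list, lay the other way, with 3.10, 2.76 and 2.66 in Rnf2delta and 3.71, 3.45 and 3.69 in control. Its arrays did not overlap, and the difference of -0.78 ± 0.22 did not pass (adjusted p = 0.14), whereas Lhx1 was called lower in E11.5 males (-0.97, adjusted p = 0.023) and in E12.5 females (-0.77, adjusted p = 0.023). The defining renal factors Pax2 and Pax8 overlapped, with 2.55 to 2.72 and 2.93 to 3.09 in Rnf2delta and 2.46 to 2.86 and 2.90 to 3.02 in control. The part of these cells in the rises of Krt18, Cldn6 and the other epithelial genes was not tested. The sums of interstitial, endothelial and macrophage markers overlapped between groups, and some of these markers had clear signal in both. Ptch1, a hedgehog receptor, read 5.14 to 5.62 in Rnf2delta and 5.13 to 5.48 in control, and Tyrobp, a myeloid adaptor, read 3.67 to 4.51 in Rnf2delta and 3.89 to 4.44 in control. That of 6 erythroid markers was 28.1 to 29 in Rnf2delta and 30.8 to 36.5 in control, and that of 8 steroidogenic markers 29.7 to 30.9 in Rnf2delta and 31 to 34.4 in control. Of 20 immediate early and dissociation stress genes none was called (median 0.12, largest difference 1.09), and Fosb differed by 0.79 (adjusted p = 0.051). Without overlap, 5 of the 20 lay higher (25%, against 9.71% of all genes) and 1 lower (against 4.54%). Of 27 p53 targets and apoptosis genes none was called (median 0.04), and 5 lay higher without overlap (18.5%, against 9.71% of all genes). Of 64 small RNA genes none was called (median -0.07). Among 16 genes of DNA methylation none was called (median 0.10), and 5 lay higher without overlap (31.2%, against 9.71% of all genes). The de novo methyltransferase gene Dnmt3b differed by 0.63 (adjusted p = 0.24).

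Arrays outside the comparison gave a separate reading of the same genes, although all calls share 1 estimate of the spread. Whether these samples shared litters with the E11.5 females is not given in the labels used here, so their independence is not known. In E11.5 males, Rnf2delta minus control was above 0 for all 82 higher genes, against 49.6% of all genes. Of these, 45 were called higher in males (54.9%), against 103 of all genes (0.679%), and 72 lay higher without overlap (87.8%), against 8.74%. The median difference in males was 0.70, and the range was 0.14 to 1.93. Cd63 read 7.44, 7.55 and 7.89 in Rnf2delta males and 6.04, 5.51 and 5.55 in control males (1.93 ± 0.33, adjusted p = 0.0017). Cbx8 read 3.61, 3.86 and 3.92 in Rnf2delta males and 2.27, 2.19 and 2.11 in control males (1.61 ± 0.18, adjusted p = 9.4e-06). For both genes the male arrays separated as the female arrays did. Abcc2 differed by -0.72 in males (adjusted p = 0.072) and Slc39a14 fell by 0.60 (0.037), so 1 of the 2 was called lower, against 0.0395% of all genes.

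No gene's genotype effect was shown to differ between the sexes at E11.5. The limma interaction, female minus male, passed for 0 genes (0%), and 269 had an unadjusted p under 0.05. The smallest adjusted p was that of Trim21, a ubiquitin ligase and antibody receptor, at -1.16 ± 0.23 (adjusted p = 0.31). Among the higher genes, Ptpru, a receptor tyrosine phosphatase, had the smallest interaction p. It rose by 1.01 ± 0.15 in females (adjusted p = 0.00046), with 3.93, 3.29 and 3.91 in Rnf2delta and 2.6, 2.74 and 2.75 in control. In males it read 2.98, 2.95 and 2.82 in Rnf2delta and 2.68, 2.80 and 2.71 in control, and the interaction was 0.83 ± 0.22 (adjusted p = 1).

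**Figure D4:**
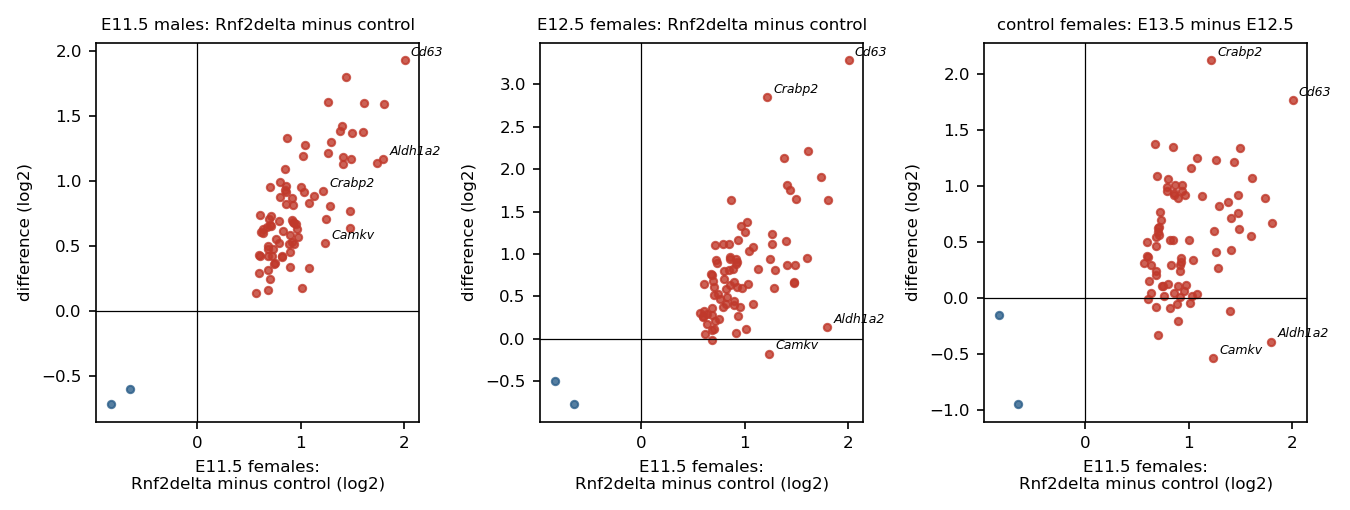
Each point is 1 of the 84 genes called in E11.5 females, higher in red and lower in blue, with its E11.5 female difference (log2) on the horizontal axis. The vertical axes give Rnf2delta minus control in E11.5 males and in E12.5 females, and E13.5 minus E12.5 in control females. Of the 82 higher genes, 82, 80 and 72 lie above 0 in the 3 panels.

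Most of these genes had the same direction in females at E12.5. At E12.5, Rnf2delta minus control was above 0 for 80 of the 82 (97.6%), against 56.7% of all genes, and 53 were called higher (64.6%), against 1174 of all genes (7.73%). The exceptions were Camkv (-0.18) and Stx7 (-0.02). Of the 82, 36 were called in E11.5 males and in E12.5 females as well. In control females, E13.5 minus E12.5 was above 0 for 72 of the 82 genes (87.8%), against 59.8% of all genes. Of the 82, 43 were called higher at E13.5 (52.4%), against 2579 of all genes (17%). The median of this age difference was 0.52 over the 82 genes. Of the 2 lower genes, Slc39a14 was called lower at E12.5 (against 2.16% of all genes) and with age (against 4.81%), and Abcc2 in neither. It shares no array with the E11.5 comparison, but it shares the 3 E12.5 control arrays with the E12.5 genotype difference. Those arrays correlated with their own group at 0.964 to 0.970, below the 0.987 to 0.990 of the 6 E11.5 female arrays, and their part in both differences was not tested. Crabp2 read 6.37, 6.45 and 5.98 in E13.5 control females and 4.38, 4.04 and 4.0 in E12.5 control females (2.13, adjusted p = 4e-06). Aldh1a2 read 3.14, 2.40 and 2.77 at E13.5 and 3.79, 2.95 and 2.73 at E12.5 (-0.39, adjusted p = 0.32), so its control groups overlapped.

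A test of the difference in genotype effect between stages, E11.5 minus E12.5 in females, passed for 22 genes (0.145%), 7 higher (0.0461%) and 15 lower (0.0988%). The 7 were Camkv and the noncoding RNA genes Snora3, Snora21, Rny3, Gm12238, Vaultrc5 and n-R5s136. None of these noncoding genes was called at E11.5. Each was called lower in Rnf2delta at E12.5, by -0.99 for Snora3 to -2.49 for Vaultrc5. Rny3 averaged 9.23 in E12.5 control females, against 7.45 at E11.5 and 7.51 at E13.5 in control, and 7.54 in E12.5 Rnf2delta. Gm12238, Vaultrc5 and n-R5s136 likewise had a higher control mean at E12.5 than at either other stage. Snora21 averaged 5.34 in control females at E12.5 and 5.33 at E13.5, and 3.67 in E12.5 Rnf2delta. Stra8 gave -2.72 ± 0.50 (adjusted p = 0.018): at E12.5 it read 6.50, 5.66 and 4.6 in Rnf2delta and 3.61, 2.71 and 2.07 in control, whereas at E11.5 the groups overlapped. Meioc, needed to proceed through meiotic prophase, gave -2.48 ± 0.39 (adjusted p = 0.0044), with 2.26, 1.98 and 1.92 in Rnf2delta and 1.55, 1.70 and 2.04 in control at E11.5. Both genes thus had the larger genotype difference at E12.5. The 15 also held genes with a low E12.5 control mean. Usp31 averaged 3.54 in E12.5 control females, against 5.13 at E11.5 and 6.22 at E13.5, and Acp1 averaged 6.82, against 8.14 and 8.22. Ier3ip1 was similar. Nkrf instead averaged 6.13 in E12.5 Rnf2delta, above the 4.36 of E12.5 and the 5.25 of E13.5 control females. The part of the E12.5 control arrays in this list was not tested. Camkv gave 1.41 ± 0.30 (adjusted p = 0.042): at E12.5 it read 3.76, 4.07 and 4.68 in Rnf2delta and 4.34, 4.18 and 4.52 in control, which overlapped. Camkv was the 1 gene of the 82 that passed this test, and it lost the call with array weights and without 1 of several arrays of either stage. Aldh1a2, with a difference of 1.80 at E11.5 and 0.13 at E12.5, was at the threshold (1.66 ± 0.37, adjusted p = 0.050), and Cdkn2a, with 0.93 and 0.61, was not past it (0.31 ± 0.29, adjusted p = 0.75). The median within-group SD was 0.142 in Rnf2delta and 0.162 in control at E11.5, against 0.207 in Rnf2delta and 0.238 in control at E12.5, and the fit uses 1 spread for all groups. With only the 12 compared arrays no gene passed (1028 had an unadjusted p under 0.05), and with array weights 6 did. Leaving out 1 array moved the count by over 1.5 times to 4 without E11.5 control replicate 2, 8 without E12.5 Rnf2delta replicate 1, 11 without E11.5 Rnf2delta replicate 1, 35 without E12.5 Rnf2delta replicate 2, 54 without E12.5 control replicate 3, 113 without E12.5 control replicate 2 and 126 without E12.5 Rnf2delta replicate 3. Stra8 lost its call without E11.5 control replicate 2 or E12.5 Rnf2delta replicate 1, and Meioc kept its call without each 1 of the 12 arrays.

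**Figure D5:**
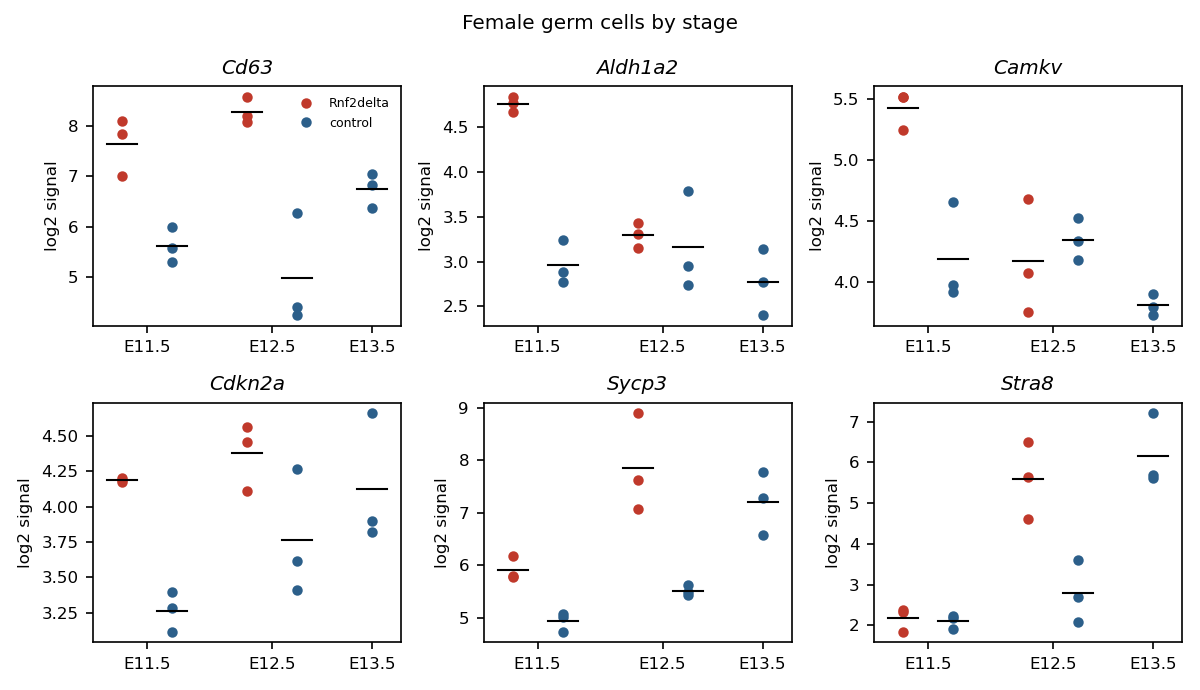
Log2 signal of each female array at E11.5, E12.5 and E13.5 for Cd63, Aldh1a2, Camkv, Cdkn2a, Sycp3 and Stra8, with Rnf2delta in red left of control in blue, control alone at E13.5, and a bar at each mean (n = 3 each). Aldh1a2 and Camkv separate the genotypes at E11.5 and overlap at E12.5, and Stra8 does the opposite.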

How the data were processed

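The authors deposited log2 signals for 34760 probe sets on 30 arrays, 10 groups of 3. Their software was R 2.15 with affy 1.36, per the submitters' processing notes; background correction, probe summary and genome build were not given in the sources used here. No scanner files were used here, so a scan batch was not tested. Precision is limited by the number of arrays.

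Gene names came from the platform annotation, and symbols were updated by Entrez identifier with the RefSeq table of GRCm38.p6, also the source of the promoters. Of the probe sets 21640 had 1 symbol (21553 matched, 87 kept the annotation's symbol), 1321 had several and 11799 none. For 954 genes with several probe sets the probe set of highest mean stood for the gene. A gene was tested if its signal was over the 40th percentile of the array on 3 or more arrays, which left 15180 of 19937. The 9815 probe sets tested that lack a single symbol gave 0 calls in limma, with 333 at an unadjusted p under 0.05.

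limma 3.58.1 in R 4.3.3 was fitted to all 30 arrays with 1 mean per group (20 residual degrees of freedom), two-sided, with Benjamini-Hochberg adjustment. SE is the standard error of the fit. On simulated data with 200 of 15180 genes changed in the E11.5 female comparison, it recovered 26% of changes of 0.5, 88% of 1, 100% of 1.5 and 98% of 2, and 3.11% of its calls were false. The simulated noise was normal and independent between genes and arrays, and changes went up and down in equal numbers, unlike the calls here. These rates hold for that setting and were not tested for the real arrays.

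The text names Rnf2, Ring1, the 24 largest rises without overlap, both falls and the next 5 by p, called members of each list and up to 4 others, fixed germ cell genes, and genes of the interactions, shortened. The comparison, the gene lists and the members of each list were chosen with earlier results of these data known. Alternatives changed the arrays fitted, array weights, variance model, filter, probe set rule, normalization, replicate block and arrays left out.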

Additional observations from a re-analysis of the deposited data

Results flagged for a closer look

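The genotype effect differed between E11.5 and E12.5 females for 22 genes in the limma interaction test. Stra8 (-2.72) and Meioc (-2.48) had the smaller Rnf2delta minus control difference at E11.5, and Camkv (1.41) had the larger one there. The other genes with a positive value were noncoding RNA genes that were lower in Rnf2delta at E12.5. For several genes of either sign, such as Rny3 and Usp31, the E12.5 control females stood apart from the control females of the other stages. Values are E11.5 minus E12.5 on the log2 scale, and their errors and adjusted p are given above. No cause was tested.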

How the results depend on the processing

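The 84 calls in E11.5 females became 151 without the E12.5 female arrays, 157 with array weights, and 39 to 62 without 1 array; with only the compared arrays they were 93, and with quantile normalization 59. The stage difference, 22 calls, became 0 with only the compared arrays, 6 with array weights, 35 with quantile normalization and 4 to 126 without 1 array. The sex difference stayed at 0 calls in each alternative. The cause of these changes was not tested. The share of higher genes also above 0 in E11.5 males was 98.5% to 100% over the alternatives, an alternative added after seeing the data. With the replicate number as a block 61 genes were called in E11.5 females, 55 of them among the 84, and 16 for the stage difference. Of the genes named, Cdkn2a, Cdkn1c and Slc39a14 were among those not called. Deviations of same-numbered samples correlated at 0.147, -0.0636 and -0.14, within the -0.152 to 0.208 of differently numbered samples. These values show no pairing by number, and with 3 arrays per group they cannot exclude it. Over 54 named genes, 698 results kept their side of the threshold and direction, 73 lost the call, 21 gained one and 17 turned direction, none of the last past the threshold. These were Ring1 (-0.0265 with quantile normalization, -0.0451 to 0.127 without 1 array), Stra8 (-0.0273 to 0.233 without 1 array), Pou5f1 (-0.0454 to 0.194 likewise), Nanog (-0.0501 with array weights, -0.0197 with quantile normalization, -0.144 to 0.0833 without 1 array), Dazl (-0.0389 with quantile normalization, -0.309 to 0.265 without 1 array) and Nanos2 (-0.179 to 0.0145 without 1 array). Signals near the low end of an array compress differences, but Pou5f1, Nanog and Dazl read well above it. The cause of the turns in direction was not tested.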

Other observations

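Some of the 82 higher genes belong to no list used here; those below were picked one by one after their values were seen, so no shared theme is claimed and nothing was tested over them. They include Bcl9, a coactivator of beta-catenin (0.80 ± 0.14, adjusted p = 0.0034), Tle3, a corepressor (0.74 ± 0.16, 0.022), Csnk1e, a casein kinase (0.60 ± 0.13, 0.023), and Fzd2, a receptor (0.57 ± 0.13, 0.043). Bcl9 kept its call without any 1 array and the other 3 of these did not. Ptprs, a receptor tyrosine phosphatase like Ptprf and Ptpru, rose by 0.85 ± 0.19 (0.034), a call lost without some single arrays, as were those of the next 3 genes. Also higher were Acly, which makes acetyl-CoA from citrate (0.79 ± 0.16, 0.014), Dgat2, which completes triglycerides (0.87 ± 0.18, 0.021), and Abhd5, an activator of triglyceride breakdown (0.95 ± 0.19, 0.014), while Scd1, a fatty acid desaturase, did not pass (1.05, 0.087). Acly read 6.09, 6.06 and 6.05 in Rnf2delta and 5.36, 5.11 and 5.36 in control. All p-values here are limma adjusted p.

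Within a window of 20 tested genes along a chromosome, 14 of the 82 higher genes formed 7 pairs. Mien1 and Grb7 on chromosome 11 were direct neighbours among tested genes, and Hdac6 and Bcor on chromosome X had 18 tested genes between them. The window was chosen after seeing the data, and the pairs are given as a description. The number of pairs that random placement would give was not computed, so the count is no sign of clustering. Just inside the threshold lay Plbd2 (0.73, adjusted p = 0.048), and just outside it Nol4l (0.68) and Sirpa (0.70), each with an adjusted p of 0.051.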
